A study of Homo sapiens with 12 samples.

Results

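Tetrac alone was set against control in HCT-116 cells, a human line established from a colorectal carcinoma, over all 770 genes of a tumour progression panel. The genes were taken from the authors' table for tetrac, which holds 740 endogenous and 30 housekeeping genes, and were separated by their value in control: 279 were at 33, the lowest value in the table and taken here as its floor, and 491 were above it. RNA was counted on the NanoString nCounter, which counts fluorescent barcodes on probes bound to single transcripts without amplification. The labels give 3 samples treated with tetrac for 24 h and 3 control samples, 6 of the 12 samples in the series; the others received heteronemin, or heteronemin with tetrac. The dose, the vehicle of the control and whether the 3 samples of a group were separate cultures are not given in the labels. The tables hold 1 normalized value per group and no value per sample, so no SD, interval or raw depth can be given, and every p-value of a gene is the authors' and covers no more than the scatter among these samples, possibly technical.

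Tetrac, tetraiodothyroacetic acid, is a deaminated analogue of the thyroid hormone thyroxine. Thyroid hormones bind nuclear receptors, and also a site on the integrin alphav-beta3 at the cell surface, from which they signal through PI3K and MAP kinases. Tetrac competes with the hormones at the integrin site and has been studied as an inhibitor of tumour growth and of vessel formation. The study's title names proliferation and signalling through the EGF receptor, neither of which a transcript panel measures.

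The control values had the marks of the labelled epithelial line. Of 5 measured epithelial markers, 4 were at 100 or more in control, among them the adhesion molecule EPCAM at 1814 and E-cadherin, CDH1, at 509, while CEACAM1 was at 33.06. Of 14 measured markers of endothelial, blood and stromal cells, 10 were at the floor in control and the highest, CD34, was at 35.63. The summed value of these 14 markers was 467 in control and 594 after tetrac, where the floor alone gives 462. By the reading given below, 9 of the 10 markers at the control floor were above it in 1 tetrac sample alone. The endothelial receptor TEK was at the floor in both groups. In RNA of whole cultures, fewer cells of a type and less RNA per cell cannot be told apart.

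Few panel genes had a low p-value after tetrac, and their changes were small. Of 714 genes with a p-value in the authors' deposited table, 9 had one under 0.05, which is 1.26% of them; 2 were higher (0.28%) and 7 lower (0.98%). That share is below the 0.05 that the cut alone would give with no differences and evenly spread p-values. With 3 samples per group, a gene without a low p cannot be taken as unchanged. ANGPTL4, a secreted inhibitor of lipoprotein lipase, had the largest change of the 9, a rise from a group value of 48.6 to 71.8. None of the 9 passed Benjamini-Hochberg adjustment over the 714 genes, where the smallest adjusted p was 0.65 from the authors' deposited table as printed. For comparison, 27.1% of the genes with a p-value had one under 0.05 after heteronemin and 22.3% after both compounds in the authors' deposited tables, from the same control samples. These shares have unlike denominators. Of the 714 genes after tetrac, 212 were at the control floor with a printed p of 0.42, which the size of a 1-sample departure does not alter. It was 10 of 704 genes after heteronemin and 148 of 686 after both compounds.

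The rises were those of ANGPTL4 and of the ephrin receptor EPHA1. ANGPTL4 was 1.48-fold higher; the authors' deposited table gives p = 0.03. Among the 90 genes between the floor and 50 in control, whose median log2 ratio was 0.35, its log2 ratio of 0.56 lay at percentile 83.3. EPHA1, a receptor tyrosine kinase for membrane-bound ephrins, went from 156 to 174, a 1.11-fold rise; the authors' deposited table gives p = 0.03. Its log2 ratio of 0.15 lay at percentile 93.1 of the 131 genes above 100 and up to 300 in control.

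The falls included genes of signalling, glucose uptake and matrix breakdown. MAPK3, which encodes the kinase ERK1, fell from 586 to 476, or 1.23-fold, the largest of the 7 falls. SLC2A1, the glucose transporter GLUT1, fell from 273 to 225, or 1.21-fold, and PLAU, the protease urokinase, fell from 434 to 365, or 1.19-fold. For each of these 3 genes the p was 0.04 in the authors' deposited table. Against genes of like level in control, SLC2A1 was at percentile 0.76, MAPK3 at 2.17 and PLAU at 7.97.

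The other 4 falls were smaller. AGGF1, an angiogenic factor, fell from 204 to 174 and was at percentile 3.82 of its level. The tight junction protein occludin, OCLN, fell from 258 to 229, with the lowest p of the table, 0.02 in the authors' deposited table. DPYSL3, a cytoskeletal protein of the collapsin response mediator family, fell from 306 to 274, and LAMA5, the alpha-5 chain of basement membrane laminins, from 293 to 267. These last 2 lay at percentiles 27.5 and 21.4 of their levels, further from the low end than the other falls, and the authors' deposited table gives p = 0.03 for both.

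**Figure D1:**
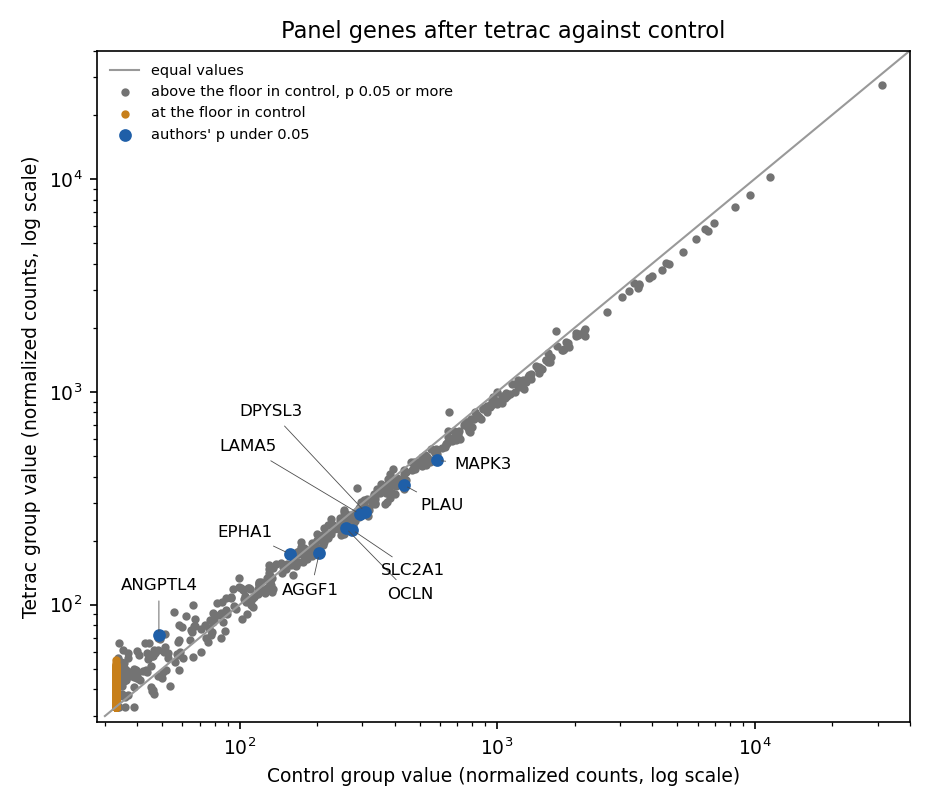
Group value after tetrac (vertical, normalized counts, log scale) against the group value in control (horizontal, same scale) for each of the 770 genes; orange points are the 279 genes on the control floor and blue points the 9 genes with an authors' p under 0.05. Points bend from above the line of equal values at low levels to below it at high levels, and the labelled genes lie close to the others.

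The direction of a gene's ratio went with its level in control. As a log2 ratio, the median was 0.35 for the 90 genes above the floor and up to 50, 0.11 for the 58 genes from there to 100, -0.04 for the 131 genes from there to 300, -0.12 for the 138 genes from there to 1000 and -0.17 for the 74 genes above 1000. Of those 74, the 73 with a lower value after tetrac ranged down to a log2 ratio of -0.30, and only FCF1, a ribosome biogenesis factor among the housekeeping genes, was higher, at 1930 against 1695. Of the 343 genes at 100 or more in control, 277 (80.8%) were lower after tetrac, and 8 of the 343 (2.33%), 7 of them lower, had a p under 0.05 in the authors' deposited table. The bands were cut on the control value that is also the denominator of the ratio, and a gene at the floor could not be lower, so the split itself fixed the sign at the floor. In bands cut instead on the heteronemin value, which is not in the ratio, an alternative chosen after seeing the data, the order did not hold at the low end: the 70 genes at the floor after heteronemin had a median log2 ratio of 0, against 0.18 for the 90 genes above it and up to 50 and 0.44 for the 227 genes from there to 100. Above that it was -0.02 for 190 genes up to 300, -0.13 for 133 genes up to 1000 and -0.17 for 60 genes above 1000. The part that a common shift of the samples had in these ratios was not tested.

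**Figure D2:**
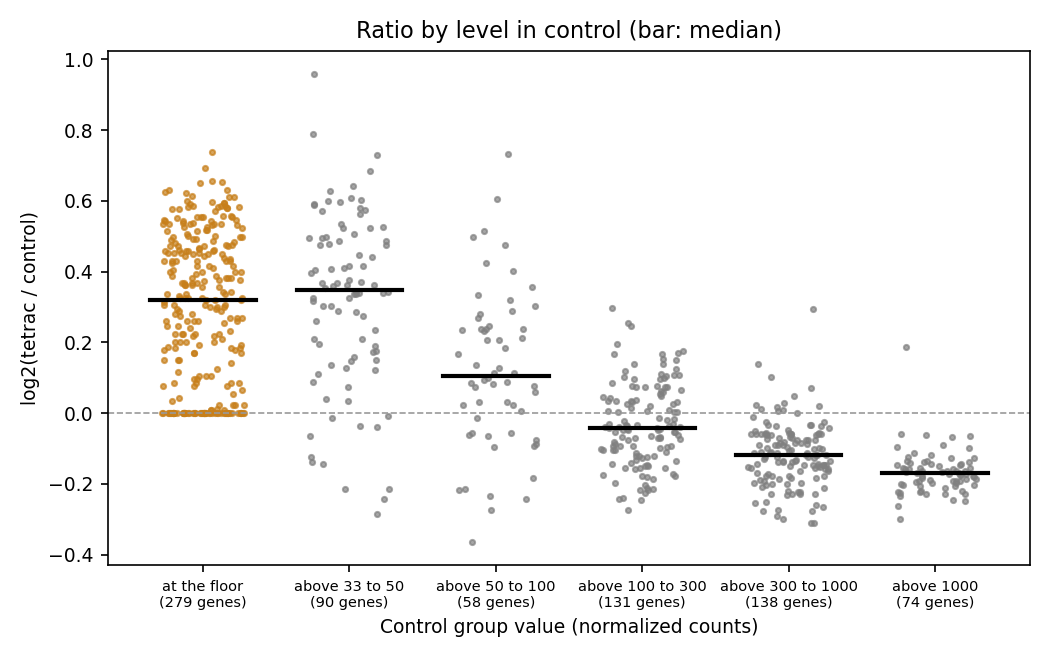
The log2 ratio of tetrac over control (vertical) for the 770 genes in 6 bands of their control value (horizontal, normalized counts); each point is a gene and the bar is the band's median. The median goes from 0.32 at the floor and 0.35 just above it to -0.17 above 1000, and the spread narrows with level; a gene at the floor cannot lie below 0.

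The choice of scale therefore set how many genes counted as higher or lower. The panel sum was 333810 in control and 306898 after tetrac, a log2 difference of -0.12, while the housekeeping genes had a median log2 ratio of -0.04. Of the 491 genes above the floor in control, 75 (15.3%) were 1.2-fold or more higher and 13 (2.65%) 1.2-fold or more lower; with both columns scaled to the same panel sum, these counts were 107 and 0. Of the 75, 73 had a control value under 100. All 9 genes called at the authors' p kept their direction with the panel sums made equal, with MAPK3 at -0.18, SLC2A1 at -0.15, PLAU at -0.13, AGGF1 at -0.11, OCLN at -0.05, DPYSL3 at -0.04 and LAMA5 at -0.01 on the log2 scale, and they also kept it with the housekeeping median set to 0.

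The largest ratios above the floor came from genes with low counts, and the largest of those were not called. CXCR2, a receptor for interleukin-8, had 33.89 in control and 65.85 after tetrac, or 0.96 on the log2 scale, and the authors' deposited table gives p = 0.44. It was followed by the gap junction gene GJA5 (0.79), the collagen cross-linking enzyme LOXL2 (0.73), the secreted phospholipase PLA2G2A (0.73), CRISPLD2 (0.68), SEMA3E (0.64), the semaphorin and VEGF co-receptor NRP1 (0.63), SPDEF (0.61), the housekeeping gene TRIM39 (0.61) and MEOX2 (0.60). LOXL2 went from 55.6 to 92.3 and had p = 0.08, the lowest of these 10 in the authors' deposited table. Its log2 ratio was 0.63 above the median of the genes of like level.

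The lowest ratios above the floor were spread over more levels. The kinase SYK was lowest at -0.36 (53.5 to 41.6), followed by the housekeeping gene SAP130 at -0.31, SLC35A3 at -0.31, the cadherin partner p120-catenin, CTNND1, at -0.30 (1274 to 1035), MAPK3, GALNT7 at -0.29, fibronectin, FN1, at -0.29, the protease CTSH at -0.28, the ephrin receptor EPHA2 at -0.28 (385 to 318) and TSPAN1 at -0.28. In the authors' deposited table MAPK3 was the 1 gene of these 10 with a p under 0.05, and CTNND1 had p = 0.37. A further 15 genes of the table had a printed p from 0.05 to 0.10 in the authors' deposited table. One of them, the sodium channel subunit SCNN1A, went from 653 to 800, and its log2 ratio of 0.29 was the highest of the 138 genes of its level; its p was 0.05 in the authors' deposited table. The transcription factor SP1 had a log2 ratio of 0.17 and PLEKHO1 of 0.17, while MYO5C was at -0.23, the acetyltransferase EP300 at -0.20, PLCG1 at -0.18, SRPK2 at -0.17, the adhesion receptor GPR56 (now ADGRG1) at -0.16 and CNOT4 at -0.14.

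Genes at the control floor behaved as a block. Of the 279, 56 stayed at the floor after tetrac and 223 were above it, reaching at most 55.0. Of these 223, 212 (95.1%) shared 1 p-value, 0.42, in the authors' deposited table. A test for unequal variances gives 0.423 whenever 1 of 3 treated values is off the floor and all other values are on it, whatever the size of the departure. With 2 of the 3 off the floor by the same amount it gives 0.184. If a group value is the geometric mean of its samples, the value of that 1 sample follows from the group value and the floor, as the cube of the first over the square of the second.

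Computed in this way, the 212 values were whole multiples of a single step of 0.822 normalized counts, as raw counts times 1 sample's normalization factor would be. Of the 212, 209 (98.6%) were whole within the rounding of the table, where rounding alone would allow 6.22%, and the other 3 were within 0.048 of a whole number. With the step taken from every second gene, 105 of the other 106 genes were whole. An arithmetic mean gave 17.0% at its best step. Read in this way, the 212 genes were above the floor in 1 tetrac sample and at it in the other 2, and 1 step served for all of them.

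Over all 279 genes at the floor in control, 76.0% showed this pattern. In that sample the 212 genes ran from 33.7 to 152.9 normalized counts, with a median of 73.2, or 41 to 186 steps. The highest was S100A7, a small calcium-binding protein of squamous epithelia, at 186 steps, or 152.9. After it came PRR15L at 129.1, the mast cell tryptase TPSB2, whose near-identical copy TPSAB1 leaves its identity uncertain, at 127.4, the synaptic vesicle gene SV2B and the ligand WNT5B at 122.5 each, the lymphoid chemokine CCL21 at 120.8, the transcription factor MAF at 120.0 and TDGF1 (now CRIPTO) at 118.4. As group values all 8 lay between 50.5 and 55.0. Under this reading, 11 of the 223 genes would remain above the floor without that sample. The median log2 ratio of the 279 genes would then be 0 in place of 0.32.

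**Figure D3:**
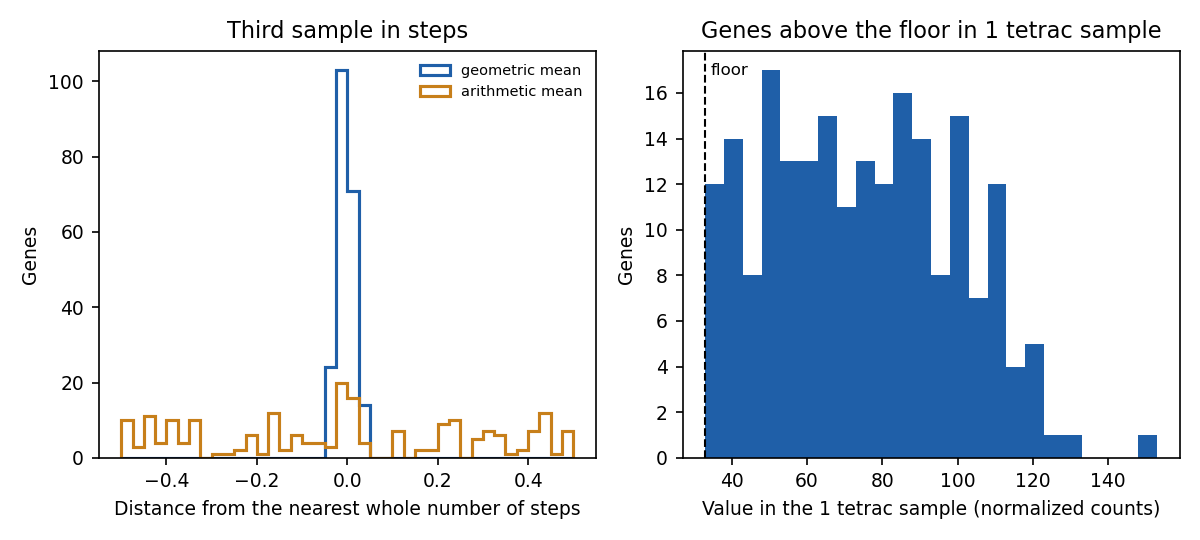
Left: distance of the computed 1-sample value of 212 genes from the nearest whole number of steps (horizontal), with the number of genes (vertical), for a group value read as a geometric mean (blue) or an arithmetic mean (orange). Right: value of those genes in the 1 tetrac sample (horizontal, normalized counts) with the number of genes (vertical), from 33.7 to 152.9 beside the floor at 33; under a geometric mean the distances gather at 0.

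The same step reached past the floor. Of 42 genes above 33 and up to 36 in control and above the floor after tetrac, 27 had a tetrac value that was whole at that step, where rounding would give 3.0. It was 5 of 18 genes up to 40, against 1.4, and 2 of 25 genes up to 50, against 2.5. Of the 10 highest ratios above the floor, 6 were whole at this step, where rounding would give 1.6. CXCR2 and MEOX2 had control values of 33.89 and 33.20 and p of 0.44 and 0.43 in the authors' deposited table. Read in this way, their tetrac values would be at the floor without that sample. Their log2 ratios of 0.96 and 0.60 would then be -0.04 and -0.01. These values were chosen for this reading after the data were seen. CRISPLD2, NRP1, LOXL2 and TRIM39 were whole too, but rounding alone allows a share of 0.118, 0.147, 0.286 and 0.337 at their values. Their p in the authors' deposited table was 0.37, 0.27, 0.08 and 0.17, below the 0.42 shared by the 212 genes. They were therefore not read as above the floor in 1 sample alone. After both compounds, 148 genes of the control floor had 0.42 as their p in the authors' deposited table, and 147 of them were whole at another step, 1.32. After heteronemin 10 genes of the control floor had that p, and 8 of them were whole at a step of 1.01. Another 203 genes of the control floor were above it after heteronemin with a different p.

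The remaining 11 genes had another p and so, under the same reading of the p, more than 1 tetrac sample off the floor. They were RUNX1T1, MMP1, ANGPT2, NCAM1, OAS1, ZFPM2, APOD, FGL2, TBXA2R, HAS1 and TWIST1. The transcription factor TWIST1 had the lowest p of all genes at the floor in control, 0.19 in the authors' deposited table, at a group value of 36.6. FGL2 followed with p = 0.26 at 42.6, then OAS1 and RUNX1T1 with p = 0.32 at 48.2 and 53.3, and the collagenase MMP1 with p = 0.34 at 51.9, all in the authors' deposited table. In the other direction 5 genes were above the floor in control and at it after tetrac, among them FBN1, PECAM1, TGFB2 and VIM. Of the 5, VIM, the mesenchymal filament vimentin, had the highest control value, 39.03.

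The receptor and targets that earlier work links to tetrac were described from a list of 29 genes, of which 18 were measured and 0 were called; with 1.26% of all genes called, a count of 0 or 1 in this list or in those that follow is not a result about its members. ITGB3, the beta3 chain of the integrin to which tetrac binds, was at the floor in control and at 44.4 after tetrac, where the authors' deposited table again has a p of 0.42; its value in the 1 sample was 80.6. The same pattern held for the gelatinase MMP9 (85.5 in that sample), MMP2, VEGFC, CX3CL1 and the vessel ligand ANGPT1 (110.2). The alphav chain of the integrin, ITGAV, was on the list but not among the measured genes. Above the floor, VEGFA was at 461 and 466, FGF2 at 109 and 105, THBS1, an inhibitor of vessel growth, at 84.6 and 91.5, and HIF1A at 1582 and 1517 in control and after tetrac. MYC went from 2068 to 1843, CTNNB1, which encodes beta-catenin, from 3253 to 2985, and the cell cycle inhibitor CDKN1A from 1500 to 1285. Their log2 ratios of -0.17, -0.12 and -0.22 stood beside a median of -0.17 for genes above 1000. HIF1A, at -0.06, lay at percentile 98.6 of that level, and VEGFA, at 0.02, at percentile 94.2 of the genes above 300 and up to 1000. The apoptosis gene BAD had a log2 ratio of 0.13, PIK3CA of -0.10 and NOS3, near the floor, of 0.36.

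In the EGFR and ERBB list, 19 genes were measured, 1 of them called, MAPK3, beside 1.26% of all genes. All 15 members at 100 or more in control were lower after tetrac, beside 277 (80.8%) of all 343 genes of that level. Their median log2 ratio was -0.15, beside -0.11 for the 343. With equal panel sums 12 of the 15 were lower, beside 162 of the 343. Set against the median of each member's level, the list median was -0.02. Among the 15 were HRAS (192 to 169) and PLCG1 (378 to 334, p = 0.07 in the authors' deposited table). EGFR itself went from 502 to 462, a log2 ratio of -0.12 at percentile 50.7 of its level. The ligands AREG (2071 to 1860) and EREG (3562 to 3182) had log2 ratios of -0.16. ERBB2, just under 100 in control, was higher at 134 and at percentile 91.4 of its level; the authors' deposited table gives p = 0.09.

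No gene of the PI3K, AKT and mTOR list was called among 10 measured, beside 1.26% of all genes. AKT1 (-0.18) and AKT2 (-0.15) had negative log2 ratios and PIK3CD (0.15) a positive one. Cell cycle genes were called in 0 of 10, with RB1 at -0.20 and CDC42 at -0.17. Of 9 stress genes 0 were called; JUN went from 119 to 126 and GDF15 from 748 to 712, while SOD1 was at -0.18 and EIF2AK3 at -0.11. In the TGF-beta and BMP list, 0 of 24 measured genes were called. BMP4 had a log2 ratio of -0.15, SMAD5 of -0.23, ACVR1 of -0.20 and the receptor BMPR1A of 0.14, at percentile 99.3 of its level.

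In adhesion and matrix, 0 of 17 integrins were called, beside 1.26% of all genes. The chains at 100 or more in control had a median log2 ratio of -0.10, or 0.02 with equal panel sums, led by ITGB4 at -0.22 and ITGA5 at -0.18, with ITGB1 at -0.16 and ITGA3 at -0.10. LAMA5 was the 1 called gene of 13 laminin and basement membrane genes; LAMB3 was at -0.24 and the proteoglycan AGRN at 0.17. Of 13 collagens 0 were called, with COL6A2 at -0.18, COL6A1 at -0.11 and COL18A1 at -0.09. Of 24 matrix proteases and inhibitors 0 were called; among those at 100 or more in control, CTSH, ADAM9 (-0.25), the inhibitor TIMP1 (-0.24) and ST14 (-0.18) were among the larger ratios in size. In the urokinase list of 4 measured genes PLAU fell, while its receptor PLAUR was at 104 and 106.

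Junction and identity genes gave 1 call a list at most, beside 1.26% of all genes. OCLN fell among 14 adherens and tight junction genes, where F11R was at -0.15 and CLDN4 at -0.14. Of 20 epithelial genes 0 were called, with SCNN1A at 0.29, KRT19 at -0.22, AP1M2 at -0.20, EPCAM at -0.20 and CDH1 at -0.10. DPYSL3 fell among 21 EMT and mesenchymal genes, of which 13 were at the floor in control; CALD1 was at -0.14 and SNAI1 at 0.07. EPHA1 rose among 5 ephrin receptors, where EPHA2 was at -0.28 and EPHB4 at -0.08.

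In angiogenesis and metabolism, ANGPTL4 rose and AGGF1 fell among 34 angiogenic genes, beside 1.26% of all genes called. JAG1 was at -0.27, MET and NOTCH1 at -0.15 each. Of the 14 angiogenic genes at the floor in control, 11 were above it in the 1 tetrac sample alone, beside 76.0% of all genes at the floor. Of 19 hypoxia and glucose genes ANGPTL4 rose and SLC2A1 fell, and the glycolytic enzymes ENO1 (-0.23) and PGK1 (-0.19) and the stress gene NDRG1 (-0.26) were not called. In the lipid list ANGPTL4 was the 1 called gene of 4 measured. Of 16 inflammatory genes 0 were called, beside 1.26% of all genes, and the 8 that were at the floor in control were above it in that 1 sample alone, beside 76.0%; NFKB1 was at 118 in both groups. Of the 14 markers of other cell types 0 were called, and 9 of the 10 at the floor in control followed the same single-sample pattern, beside 76.0% of all genes at the floor.

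Over the 17 lists with 3 or more members at 100 or more in control, every median log2 ratio was below 0. With equal panel sums 5 of the 17 were below 0 and 12 above it. Set against the median of each member's level, list medians lay between -0.06, for laminin and basement membrane genes, and 0.05, for stress genes.

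**Figure D4:**
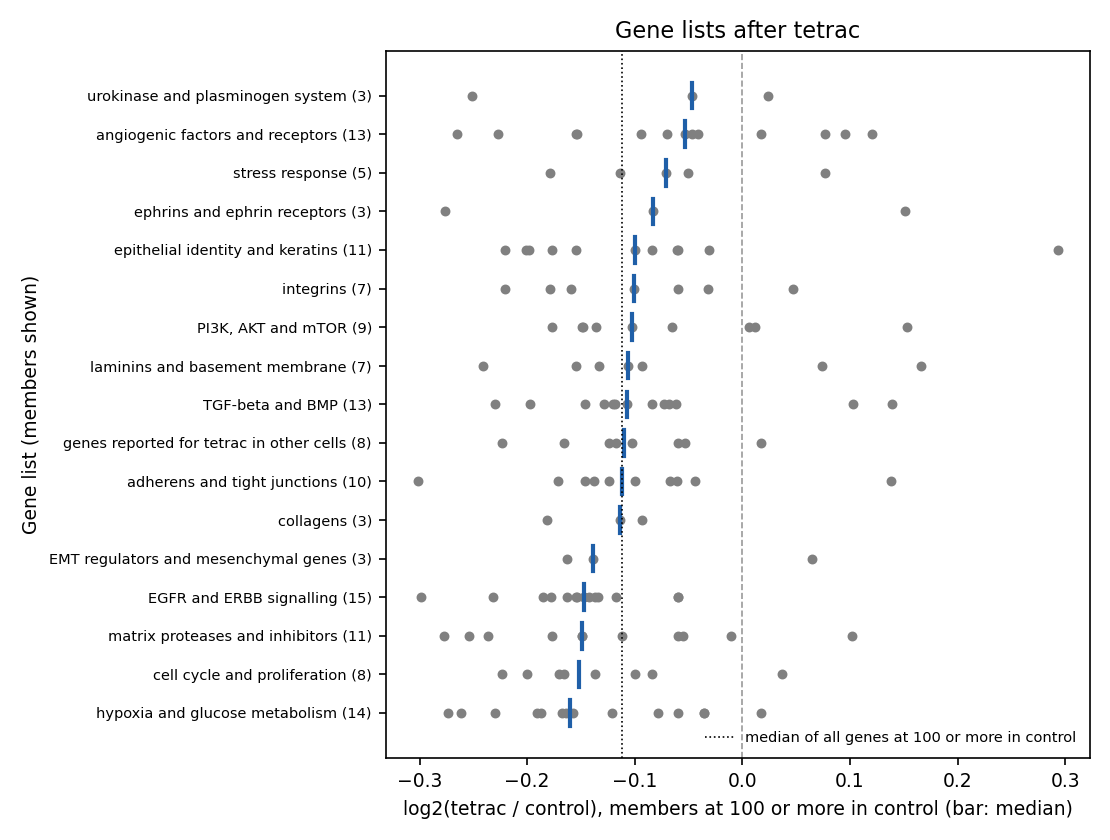
The log2 ratio of tetrac over control (horizontal) for members of 17 gene lists (vertical, number of members shown in brackets) with 100 or more in control; points are genes, bars are list medians and the dotted line is the median of all 343 genes of that level, -0.11. The list medians lie between -0.16 and -0.05.

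The 9 called genes had unlike values in the other treatments, whose ratios share the same control samples. ANGPTL4 had 105 after heteronemin and 155 after both compounds, above the 71.8 after tetrac. MAPK3 had 340 and 343, below the 476 after tetrac, and DPYSL3 had 218 and 218, below its 274. AGGF1 was at 176 and 170, and SLC2A1 at 230 and 243, near their tetrac values. OCLN and LAMA5 were lower after tetrac and higher after both compounds, at 295 and 329, with p = 0.08 and 0.01 in the authors' deposited table. PLAU was at 428 after heteronemin and 457 after both, on either side of its control value of 434, and EPHA1 was at 153 and 128, below its control value of 156. Of the 9 genes, 4 had a p under 0.05 after heteronemin and 5 after both compounds in the authors' deposited tables, where 27.1% and 22.3% of all genes did. Differences between treatments were not tested, since the tables hold no p for them.

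**Figure D5:**
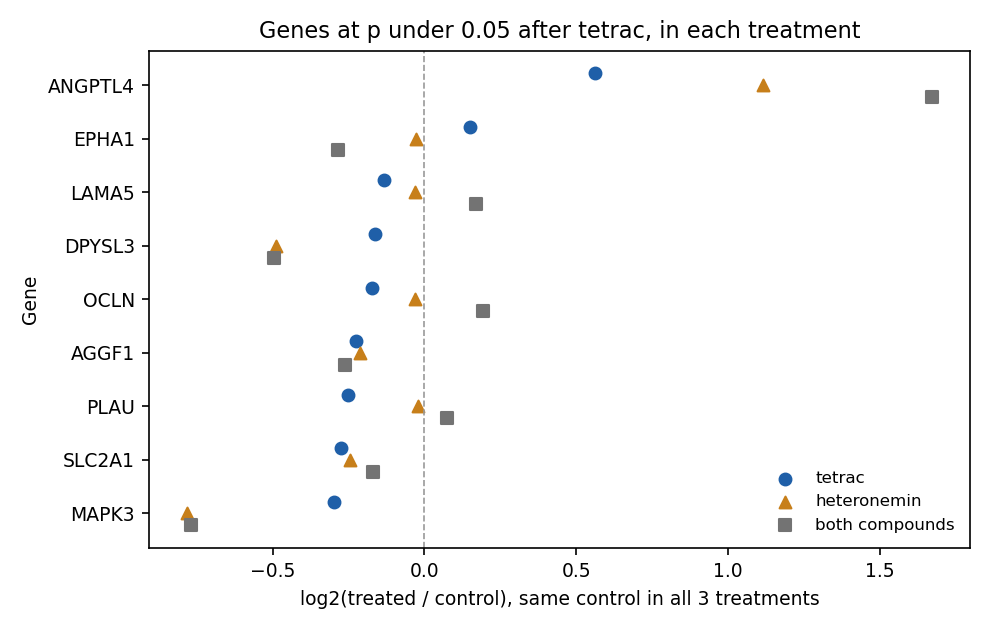
The log2 ratio of each treatment over control (horizontal) for the 9 genes with an authors' p under 0.05 after tetrac (vertical); circles are tetrac, triangles heteronemin and squares both compounds, all against the same control value. Only ANGPTL4, MAPK3, DPYSL3, AGGF1 and SLC2A1 lie on the same side of 0 in all 3 treatments.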

How the data were processed

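Raw counts were normalized by the authors in nSolver 4.0, per the labels' design text, with a positive control factor per sample and a biological normalization. The authors deposited 3 tables with 1 normalized signal per group, a signed fold score that matched the quotient of the 2 group values within 0.00511, and a p-value to 2 decimals. The test behind the p-value and a genome build are not given in the sources used. All tables share 1 control column.

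From these, log2 ratios were computed without a pseudocount. A gene was called at the authors' p under 0.05. Percentiles and level medians are those of genes in the same of 5 bands of control value, or at the floor. The step was searched from 0.6 to 2.5 in increments of 1e-05 and checked on simulated data. The 3 samples per group and their unknown spread limit precision.

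Named genes are all called genes, the 10 highest and 10 lowest ratios above the floor, the 10 highest at the floor, called members and the 4 largest ratios at 100 or more per list, measured members of the tetrac list above the floor, the 8 lowest p-values at the floor, and the 10 largest ratios with p from 0.05 to 0.10; other names were chosen after their values were seen. Some genes that the rule names are not reported here. The members, the 20 lists (473 genes, 276 measured) and the tests were chosen with earlier results of these data known. Of the symbols, 755 were current and 15 were matched by accession. Python 3.11.15, numpy 2.4.6, scipy 1.17.1, pandas 2.3.3 and matplotlib 3.10.9 were used.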

Additional observations from a re-analysis of the deposited data

How the results depend on the processing

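The 9 calls (2 higher, 7 lower) became 0 at p under 0.01 (0 and 0), 21 at p under 0.10 (7 and 14), 3 at 1.2-fold or more (1 and 2) and 0 after Benjamini-Hochberg adjustment (0 and 0), and the higher calls became 4 at a printed p of 0.05 or less and 1 at 100 or more in control. The median log2 ratio above the floor, -0.06, was -0.027 with housekeeping centring, 0.0566 with equal panel sums, -0.0943 and -0.112 at 50 or more and 100 or more in control, and -0.0704 from the authors' deposited ratio. At the floor, 0.32 became 0.36, 0.44 and 0.25 with housekeeping centring, equal panel sums and a pseudocount of 10. The count of 223 genes leaving the floor was 52 with the floor raised 1.5 times. Under the 1-sample reading, without the tetrac sample of the common step, it was 11 and the median 0. This alternative was chosen after seeing the data. The 75 higher genes at 1.2-fold became 16 and 2 at 50 or more and 100 or more in control and 14 at 1.5-fold; the 13 lower became 4 with housekeeping centring, 0 with equal panel sums and 0 at 1.5-fold. The housekeeping median of -0.04 was -0.0771 for those at 100 or more. The cause was not tested where a scale or level changed a value. No paired analysis was possible because the tables hold group values only, and leaving out each replicate in turn was not run for the same reason.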
